A study of Drosophila melanogaster with 2 samples.

Results

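The genes of small nucleolar RNAs (snoRNAs) and the promoters of the genes that carry them were examined in a map of Sry-beta binding in Drosophila melanogaster embryos. All 269 genes annotated as snoRNA by Ensembl release 115 on the nuclear chromosome arms were taken, out of 18277 genes once transposable elements were set aside. The host of a snoRNA was the shortest other gene of the same strand whose body held the whole snoRNA. By this rule 247 snoRNA genes had a host, in 92 host genes, and 22 had none. Chromatin immunoprecipitation and sequencing (ChIP-seq) had been done on whole embryos of mixed sex, 0 to 12 h old, of the transgenic strain Sry-beta-GFP. The strain expresses Sry-beta, a C2H2 zinc finger protein, fused to eGFP, and the labels give Sry-β as the antibody's target. The series held 2 libraries, biological replicates 2 and 4 of 1 group, so there were no conditions to set against each other, and a spread means the difference between these replicates. A description in the labels calls both libraries input controls, although their assay title and antibody are those of a ChIP experiment, and they were read as ChIP libraries. Whole embryos mix all cell types, and the lists do not tell in which cells a site was bound.

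Peaks came as 4 lists on the dm6 assembly. The list that passed the authors' irreproducible discovery rate step (IDR) held 3257 peaks, and the relaxed lists of replicate 2, of replicate 4 and of both pooled held 30000 peaks each, a fixed number that takes in weak and background regions. A peak was placed by its summit, and a gene counted as having one when a summit lay within 500 bp of its start or of one of its transcription start sites (TSSs). The signal of a peak is the authors' own value. Its scale is not stated, so signals and ranks were compared within a list. Because reads were not counted in the lists, their depth is unknown. The 95% Wilson intervals given with shares cover the number of genes or peaks and nothing else. For each replicate alone, its 3257 highest peaks were used.

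snoRNAs guide the chemical modification of ribosomal and spliceosomal RNA: box C/D snoRNAs direct 2′-O-methylation and box H/ACA snoRNAs direct pseudouridylation. In flies most snoRNAs have no promoter of their own and are cut out of the introns of a host transcript, so the host's promoter sets where transcription starts. Hosts are often genes for ribosomal proteins or other parts of the translation and splicing machinery, and some, the Uhg genes, are non-coding transcripts whose introns carry one snoRNA after another. Genes for ribosomal proteins in flies commonly start at a pyrimidine initiator, a run of C and T at the start site. By their names, 112 of the 269 were pseudouridylation guides (Psi), 87 were methylation guides (Me) and 70 had other names.

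The promoters of 10 hosts with an IDR peak are shown to set their initiators and summits side by side. Each runs from 120 bases before to 20 bases from the host's outermost TSS, on the host's strand, in dm6 coordinates and from the RefSeq sequence of that assembly. Capitals mark CTTT with its C within 5 bases of the TSS, TATCGATA (the DNA replication-related element, DRE), and TAGCTA. RpL14 was read at chr3L:8600886-8601025 (plus strand), RpL13A at chr3R:5624354-5624493 (plus strand), RpS5a at chrX:17148245-17148384 (minus strand), RpS3A at chr4:67188-67327 (minus strand) and RpL28 at chr3L:3222941-3223080 (minus strand). pths was read at chr2L:21143109-21143248 (plus strand), RpL10Ab at chr3L:11822731-11822870 (plus strand), RpS12 at chr3L:13023232-13023371 (plus strand), Tudor-SN at chr3L:264361-264500 (minus strand) and Irbp at chr3R:11409927-11410066 (plus strand).
RpL14: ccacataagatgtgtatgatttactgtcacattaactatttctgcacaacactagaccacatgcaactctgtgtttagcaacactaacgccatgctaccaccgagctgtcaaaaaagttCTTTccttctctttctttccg
RpL13A: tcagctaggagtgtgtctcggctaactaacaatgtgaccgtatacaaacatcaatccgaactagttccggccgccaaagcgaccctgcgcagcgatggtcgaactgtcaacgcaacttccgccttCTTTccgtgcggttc
RpS5a: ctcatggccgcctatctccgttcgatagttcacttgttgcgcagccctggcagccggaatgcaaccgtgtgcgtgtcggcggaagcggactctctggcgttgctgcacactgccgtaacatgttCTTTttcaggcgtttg
RpS3A: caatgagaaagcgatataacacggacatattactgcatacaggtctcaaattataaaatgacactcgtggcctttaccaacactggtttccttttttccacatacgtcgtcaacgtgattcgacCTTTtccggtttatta
RpL28: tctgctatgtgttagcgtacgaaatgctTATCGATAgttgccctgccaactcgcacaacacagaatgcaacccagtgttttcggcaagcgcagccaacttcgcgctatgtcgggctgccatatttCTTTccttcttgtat
pths: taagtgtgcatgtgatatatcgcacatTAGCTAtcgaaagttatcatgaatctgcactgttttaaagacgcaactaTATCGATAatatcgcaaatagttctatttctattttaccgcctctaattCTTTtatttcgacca
RpL10Ab: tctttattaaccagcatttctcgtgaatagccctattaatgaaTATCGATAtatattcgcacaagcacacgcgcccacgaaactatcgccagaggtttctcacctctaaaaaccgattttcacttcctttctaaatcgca
RpS12: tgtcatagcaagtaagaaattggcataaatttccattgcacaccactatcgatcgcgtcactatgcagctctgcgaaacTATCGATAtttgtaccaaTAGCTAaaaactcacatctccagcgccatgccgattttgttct
Tudor-SN: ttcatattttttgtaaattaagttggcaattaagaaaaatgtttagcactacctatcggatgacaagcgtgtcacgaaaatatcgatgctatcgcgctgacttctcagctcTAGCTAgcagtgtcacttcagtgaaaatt
Irbp: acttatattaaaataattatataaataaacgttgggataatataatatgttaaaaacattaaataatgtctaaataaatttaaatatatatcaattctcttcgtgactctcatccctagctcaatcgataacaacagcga

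In the first 4 of these the capitals are the CTTT initiator alone. RpL28 has the initiator and a DRE, pths has both and TAGCTA, RpL10Ab has a DRE, RpS12 a DRE and TAGCTA, Tudor-SN TAGCTA, and Irbp none of the marked letters. The IDR summit lay 48 bp upstream of the TSS at RpL14, 52 bp at RpL13A and at RpS5a, 22 bp at RpS3A and 37 bp at RpL28. It lay 6 bp upstream at RpL10Ab and 43 bp at RpS12. At the hosts shown that are not ribosomal protein genes, it lay 63 bp upstream at Tudor-SN, 81 bp at Irbp and 109 bp at pths. These promoters are examples, and hosts with the highest summit far from the TSS were left out by the choice. Elsewhere, the highest summit lay 20 bp upstream of the TSS at Pi4KIIalpha and 42 bp at kra, which are not ribosomal protein genes either. At RpL4 it lay 422 bp upstream.

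In 11 snoRNA genes a peak and the snoRNA itself come close, with an IDR summit within 500 bp of the start. Of these 11, the 7 on chromosomes X and 3 are shown. They were chosen by chromosome and not by distance, and the start nearest to a summit is not among them. In the H/ACA-type genes, capitals mark an ACA that ends 3 bases before the 3′ end and the match to ANANNA nearest the middle, the letters of the hinge (H) box. In the C/D-type genes, they mark TGATGA and CTGA, the letters of the C and D boxes. snoRNA:Or-aca2, inside RpS6, was read at chrX:7901062-7901203 (minus strand). snoRNA:Psi18S-920, inside RpL10Ab, was read at chr3L:11822984-11823124 (plus strand), snoRNA:Psi18S-1275, inside RpS29, at chr3R:9778398-9778537 (plus strand), and snoRNA:Psi28S-1232, inside RpL17, at chrX:6743675-6743815 (minus strand). Of the C/D type, snoRNA:Me28S-A774b, inside RpS12, was read at chr3L:13023580-13023652 (plus strand), snoRNA:Or-CD11a, inside RpL28, at chr3L:3222475-3222541 (minus strand), and snoRNA:Me18S-C1096, inside RpL3, at chr3R:11222405-11222489 (plus strand).
snoRNA:Or-aca2: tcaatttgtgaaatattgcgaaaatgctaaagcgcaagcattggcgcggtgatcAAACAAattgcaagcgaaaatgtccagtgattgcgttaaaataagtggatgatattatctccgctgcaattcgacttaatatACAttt
snoRNA:Psi18S-920: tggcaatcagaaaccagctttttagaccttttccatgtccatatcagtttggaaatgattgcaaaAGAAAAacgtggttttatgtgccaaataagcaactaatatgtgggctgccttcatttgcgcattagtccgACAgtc
snoRNA:Psi18S-1275: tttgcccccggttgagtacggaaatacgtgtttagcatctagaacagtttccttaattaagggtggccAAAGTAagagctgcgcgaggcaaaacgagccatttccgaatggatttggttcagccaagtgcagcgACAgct
snoRNA:Psi28S-1232: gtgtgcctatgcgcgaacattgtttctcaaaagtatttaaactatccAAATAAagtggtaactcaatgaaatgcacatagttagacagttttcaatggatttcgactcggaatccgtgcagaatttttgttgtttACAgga
snoRNA:Me28S-A774b: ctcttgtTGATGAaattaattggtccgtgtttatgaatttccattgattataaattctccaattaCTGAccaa
snoRNA:Or-CD11a: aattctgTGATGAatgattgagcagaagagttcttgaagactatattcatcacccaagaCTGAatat
snoRNA:Me18S-C1096: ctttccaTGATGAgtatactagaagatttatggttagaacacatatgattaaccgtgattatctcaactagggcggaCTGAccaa

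The 7 shown lie in ribosomal protein genes; the other 4 of the 11 do not, as 2 lie in Uhg4, 1 in Uhg5 and 1 has no host. Of the 7, 5 lie in an intron and 2, snoRNA:Or-aca2 and snoRNA:Or-CD11a, overlap an annotated exon of the host. Matches to such short letters are a description of the sequence and not a mapped box.

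Summits were found at few snoRNA starts and at many host promoters. A summit of the IDR list lay within 500 bp of 11 of the 269 snoRNA starts, 4.09% (interval 2.30 to 7.17), against 13.8% of the starts of 18008 other genes. For tRNA genes, another class of short non-coding genes, the share was 4.83% of 290. In the pooled relaxed list, 58 snoRNA starts had a summit, 21.6% (17.1 to 26.9), against 45.6% of other gene starts and 43.8% of tRNA starts. At the host promoters the order was the opposite: 48 of 92 hosts had such a summit near a TSS, 52.2% (42.1 to 62.1), against 18.0% of 13968 protein-coding genes. In the pooled relaxed list the counts were 84 of 92 hosts, 91.3% (83.8 to 95.5), against 53.1% of protein-coding genes. Counted by snoRNA, 131 of the 247 with a host had an IDR summit at the host's promoter (53.0%), but snoRNAs of 1 host share that promoter and are not independent.

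**Figure D1:**
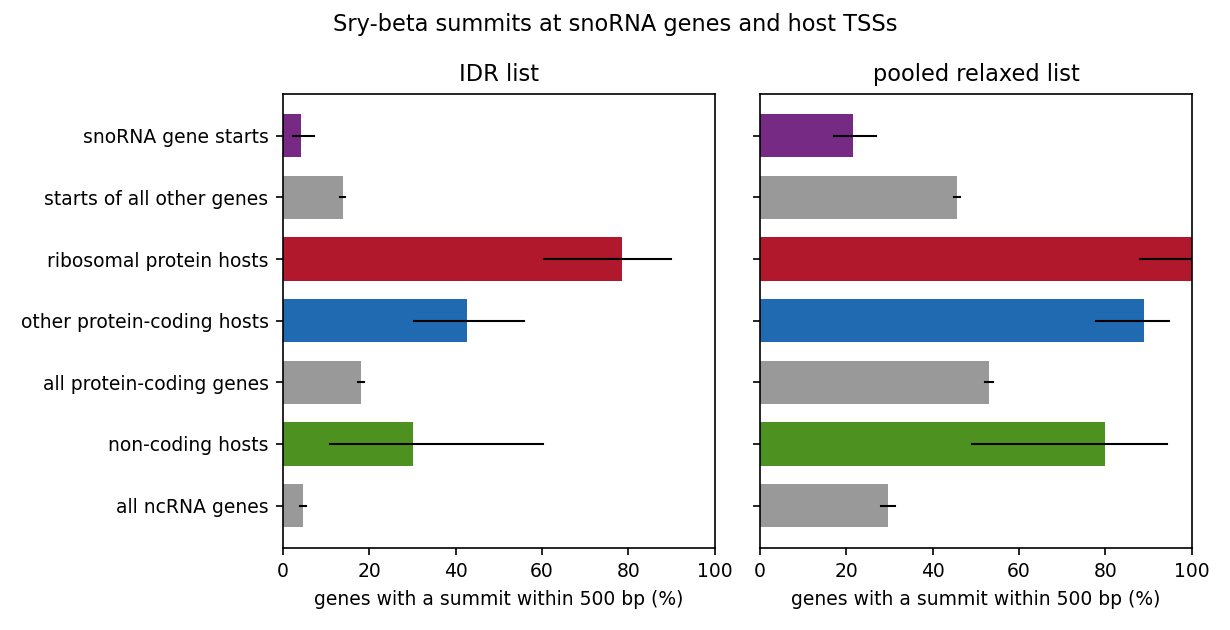
Share of genes (x axis, percent) with a summit within 500 bp, in the IDR list (left) and the pooled relaxed list (right), for snoRNA starts and for 3 classes of host, each above its background in grey. Lines are 95% Wilson intervals. In the IDR list the snoRNA starts stand at 4.09%, against 13.8% for other gene starts, while ribosomal protein hosts stand at 78.6% and other protein-coding hosts at 42.6%, against 18.0% for all protein-coding genes.

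Of the few IDR peaks near snoRNA starts, nearly all lay at the promoter of the host. All 10 of the hosted snoRNA genes with an IDR summit near their start had that summit within 500 bp of a TSS of the host. By distance of the start from the nearest host TSS, 9 of 35 snoRNAs within 500 bp had an IDR summit, 1 of 51 at 501 to 1000 bp, 0 of 75 at 1001 to 2000 bp and 0 of 86 farther out. The 1 between was snoRNA:Me18S-C1096, whose start lies 511 bp from the TSS of RpL3 and 474 bp from a summit 37 bp downstream of that TSS. Over the same host bodies, 3.95% of all bases lay within 500 bp of an IDR summit, and the mean over hosts weighted by their number of snoRNAs was 9.78%, against 4.05% of hosted snoRNA starts listed with one (10 of 247). The share for the starts was close to that over all bases and below the weighted mean. In the pooled relaxed list the starts stood at 18.6% (46 of 247), against 22.0% of bases and a weighted mean of 25.0%.

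Among the starts nearest to an IDR summit, the 3 closest were 15, 86 and 134 bp away. snoRNA:185 on chromosome 2R, 55 bp long and without a host, had a summit 15 bp from its start with a signal of 175 and rank 3099 of 3257. It lies 379 bp from an annotated TSS of another gene, and the replicates' own summits there were 170 bp away in replicate 2 (signal 105) and 185 bp away in replicate 4 (signal 54.2). snoRNA:Or-aca2 followed at 86 bp (signal 193), where the replicates had summits 43 bp away (signal 94.5) and 189 bp away (signal 161). Next was snoRNA:Psi28S-2949, in Uhg4, at 134 bp from a peak of signal 618, which both replicates held, at 143 bp (signal 325) and at 134 bp (signal 290). snoRNA:Or-aca5, also in Uhg4, was 447 bp from the same peak. The others were snoRNA:Psi18S-920 at 139 bp, snoRNA:Me18S-C1366 in Uhg5 at 210.0 bp, snoRNA:Me28S-A774b at 271 bp, snoRNA:Psi18S-1275 at 352 bp, snoRNA:Psi28S-1232 at 376 bp and snoRNA:Or-CD11a at 456 bp. Just outside the window lay snoRNA:U49:66Da in RpL14, at 515 bp, and snoRNA:Me28S-C3227a in Uhg5, at 516 bp.

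**Figure D2:**
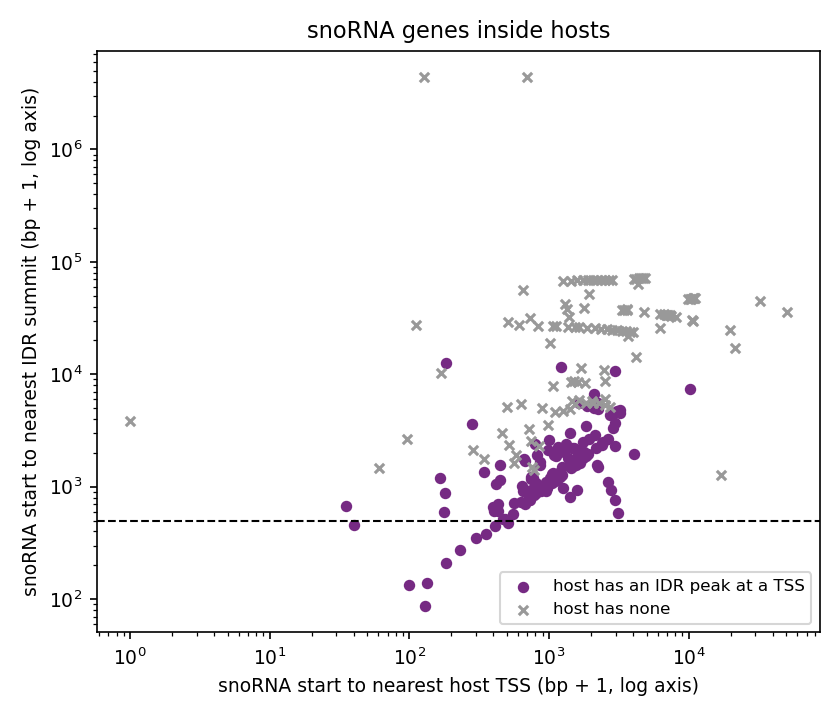
Distance of each hosted snoRNA start from the nearest TSS of its host (x axis, bp + 1, log scale) and from the nearest IDR summit (y axis, bp + 1, log scale), with filled points where the host has an IDR peak at a TSS and crosses where it has none. The dashed line is at 500 bp. The 10 points below it lie at the left, within 511 bp of a host TSS, and most filled points run near the diagonal, where the distance to the summit is close to that to the TSS.

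The 22 snoRNA genes without a host had an IDR summit at 1 start (4.55%, 0.807 to 21.8). Pooled relaxed summits were at 12 of the 22 starts (54.5%, 34.7 to 73.1), against 45.6% of other gene starts. Of these 22, 10 lie inside a gene of the opposite strand. The strongest pooled peaks were at snoRNA:185 and at 6 further genes. Near the start of snoRNA:Or-ACA6, inside egr but on the other strand, a pooled peak of signal 155 lay 405 bp away. snoRNA:Psi18S-176 had a pooled peak of signal 138 at 59 bp, with replicate summits within 1 bp of the start at signals 67.4 and 61.0. snoRNA:Psi28S-1153 and 2 neighbouring snoRNA genes shared a single peak of signal 138, at 447, 283 and 78 bp, so that these 3 starts are 1 site. snoRNA:Or-aca4 had a peak of signal 131 at 85 bp. These pooled peaks ranked between 3099 and 4579 of 30000, and only that of snoRNA:185 is in the IDR list. Counted in the highest peaks of a single replicate, 5 of the 22 starts had a summit in replicate 2 (interval 10.1 to 43.4), against 14.3% of other gene starts, and 0 of 22 in replicate 4 (0 to 14.9), against 13.2%. Both backgrounds lie inside the intervals.

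Of the 3 classes of host, ribosomal protein genes had peaks most often. They made up 28 of the 92 hosts; 54 were other protein-coding genes and 10 were non-coding. An IDR summit was at 22 of 28 ribosomal protein hosts (78.6%, 60.5 to 89.8), at 23 of 54 other protein-coding hosts (42.6%, 30.3 to 55.8) and at 3 of 10 non-coding hosts (interval 10.8 to 60.3). The backgrounds were 18.0% of protein-coding genes and, for the non-coding hosts, 4.59% of 3289 ncRNA genes. In the pooled relaxed list the counts were 28 of 28, 48 of 54 and 8 of 10, the last against 29.7% of ncRNA genes. Ribosomal protein genes that carry no snoRNA had an IDR summit at 38 of 65 (58.5%, 46.3 to 69.6), whose interval overlaps that of the ribosomal protein hosts. By snoRNA type, the host had an IDR summit for 60 of 107 hosted Psi snoRNAs (56.1%), 40 of 82 Me snoRNAs (48.8%) and 31 of 58 others (53.4%), with overlapping intervals.

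The peaks at host promoters had about the median height of promoter peaks, and few were among the highest. The 54 IDR peaks within 500 bp of host TSSs had a median signal of 304 (172 to 2854), against 310.0 over all 1988 IDR peaks at protein-coding TSSs. The ratio of the medians was 0.979, and the same ratio was 1.11 in replicate 2 and 0.801 in replicate 4, so the replicates fell on either side of 1. Peaks with a signal of at least 1000 were 4 of 54 (7.41%, 2.92 to 17.6), against 432 of 1988 (21.7%). The median over ribosomal protein hosts was 338 (23 peaks), that over other protein-coding hosts 274 (28 peaks).

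**Figure D3:**
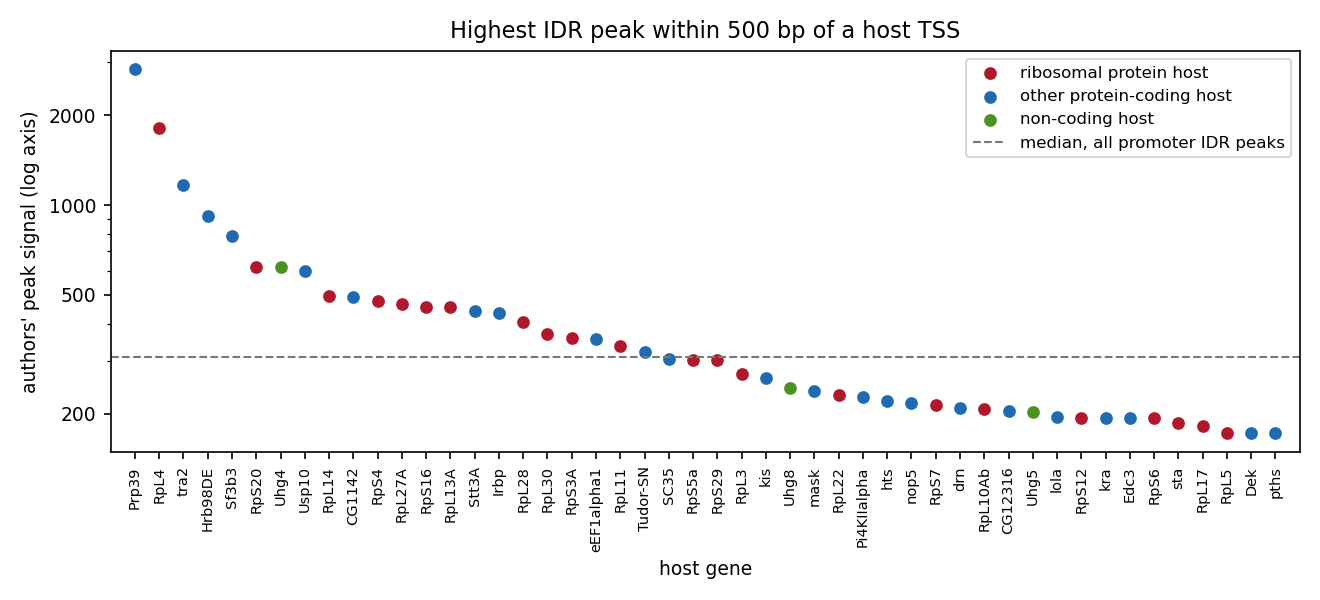
The authors' signal (y axis, log scale) of the highest IDR peak within 500 bp of a TSS of each of the 48 hosts that have one (x axis), coloured by class of host. The dashed line is the median of all promoter IDR peaks, 310.0. The values fall between 172 (pths, Dek) and 2854 (Prp39), with ribosomal protein hosts spread over most of the range.

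The 15 hosts with the highest signal were led by Prp39, RpL4 and tra2. Prp39, which encodes a splicing factor, had a peak of signal 2854 (3R, from 28811592 to 28812244) whose summit lay 346 bp upstream of the TSS. Its highest peak in replicate 2 ranked 471 (signal 386) with a summit 101 bp upstream, and that in replicate 4 ranked 165 (signal 2797) with a summit 318 bp upstream. RpL4, for a protein of the large ribosomal subunit, had a peak of 1810.0 (3R, from 27922058 to 27922566) and ranked 542 in replicate 2 (signal 320) and 309 in replicate 4 (signal 1463). tra2, a splicing regulator of the sex determination pathway, had a peak of 1169 (2R, from 14604126 to 14604536) with its summit 3 bp downstream of the TSS, ranked 397 in replicate 2 (signal 477) and 529 in replicate 4 (signal 720.0). Each of these 3 hosts had a high peak in both replicates, but not always the same peak as in the IDR list. At Prp39 no summit of replicate 2 lay within 100 bp of the IDR summit. At RpL4 the replicate 2 values given are those of another summit, and the peak matched to the IDR summit ranked 550 there (signal 312).

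At several of the highest hosts the summit was nearer to a neighbouring gene. The RpL4 peak was 422 bp from the TSS of RpL4 and 43 bp from that of BCAS2, and the highest peak of replicate 2 was a different one, 25 bp upstream of RpL4. Hrb98DE, for an hnRNP protein and host of 7 snoRNAs, had a peak of 921 that lay 374 bp from its TSS and 172 bp from Noa36. Sf3b3, for a subunit of the SF3b splicing complex, had a peak of 786 that lay 422 bp from its TSS and 286 bp from CG42553; replicate 2 had a summit 56 bp upstream of Sf3b3, and replicate 4 had no summit within 500 bp. RpS20 (signal 620.0, 181 bp) was nearer to CG17271 at 152 bp, and Stt3A, for a subunit of the oligosaccharyltransferase (signal 442, 407 bp), was nearer to bves at 202 bp. Over all 48 hosts with an IDR peak, the highest summit was nearer to the TSS of another protein-coding gene in 9: the 5 above and eEF1alpha1 (nearer to ERp60), SC35 (eRF3), hts (CalpA) and Edc3 (Nedd4). They were 2 of 22 ribosomal protein hosts and 7 of 23 other protein-coding hosts. The count by highest summit was not made over all protein-coding genes. When a summit counted only for a gene whose TSS was the nearest, or for a non-coding host no farther, 42 of 92 hosts kept an IDR summit (45.7%), against 13.2% of protein-coding genes. Under that rule hosts with a summit went from 48 to 42, and all protein-coding genes with one from 2518 to 1839.

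The other hosts among the 15 had their highest summit nearest to their own TSS. Uhg4, a non-coding host of 7 snoRNAs, had a peak of 618 with its summit 35 bp upstream (replicate 2 signal 325, replicate 4 signal 290.0). Usp10, for a ubiquitin-specific protease, had 602 at 265 bp upstream, and CG1142 had 492 at 163 bp upstream. The remaining 5 were ribosomal protein genes: RpL14 (496, 48 bp upstream), RpS4 (477, 1 bp upstream), RpL27A (466, 327 bp upstream), RpS16 (457, 34 bp upstream) and RpL13A (455, 52 bp upstream). In replicate 2 these 5 had signals of at least 209, and in replicate 4 of 179 to 341; each ranked among the 3257 highest peaks in both.

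The replicates shared most of the hosts with peaks, and replicate 2 held more of the ribosomal protein hosts. Among its 3257 highest peaks, replicate 2 had a summit at 52 of 92 hosts (56.5%), against 18.5% of protein-coding genes in that list, and replicate 4 at 42 (45.7%), against 17.4%. Both held 37 hosts, replicate 2 alone 15 and replicate 4 alone 5. How many of all protein-coding genes were in both lists or in 1 was not counted, so this overlap is not read as particular to hosts. Of the 48 hosts with an IDR peak, 36 were in both and 1, pths, for an RNA helicase, was in neither. Of the 44 without one, RpL7A was in both, with its highest summit 24 bp downstream of a TSS in replicate 2 and 352 bp upstream of one in replicate 4. Ribosomal protein hosts were in the highest peaks of replicate 2 for 27 of 28 (96.4%) and of replicate 4 for 18 of 28 (64.3%), while ribosomal protein genes without a snoRNA stood at 39 of 65 (interval 47.9 to 71.0) and 35 of 65 (interval 41.9 to 65.4). What sets the replicates apart was not tested.

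**Figure D4:**
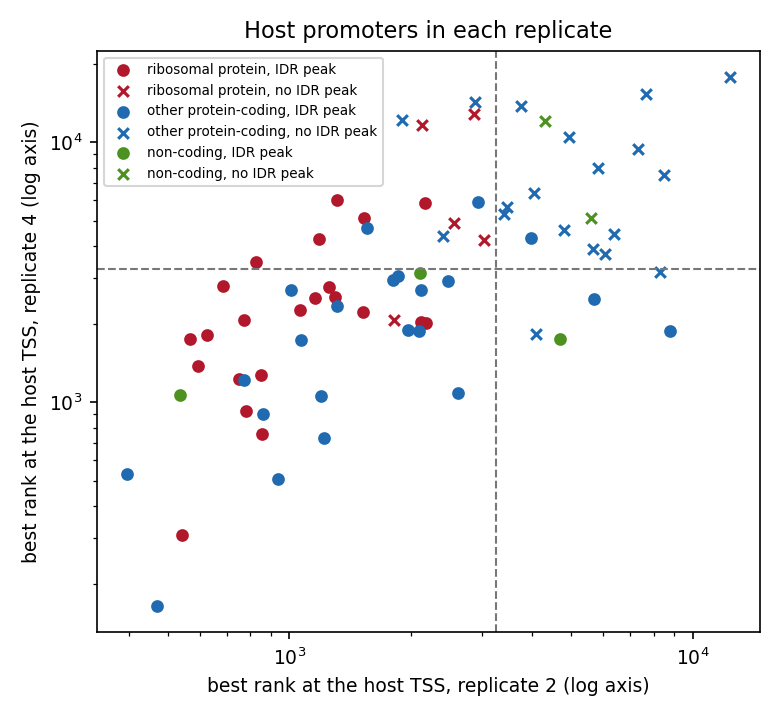
Rank of the highest peak within 500 bp of a host TSS in replicate 2 (x axis, log scale) and replicate 4 (y axis, log scale) for the 73 hosts with a peak in both relaxed lists, filled where the host has an IDR peak. Dashed lines mark rank 3257. Most filled points lie at the lower left, inside both lines, and the ribosomal protein hosts outside 1 line lie above the horizontal one, within the highest peaks of replicate 2 but not of replicate 4.

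Summits at ribosomal protein hosts sat close to the TSS. Their 23 IDR summits had a median position of -34 bp (upstream is negative), and 19 of 23 lay within 60 bp of the TSS (82.6%, 62.9 to 93.0). Over the 28 summits at other protein-coding hosts the median was -122 bp and 7 lay within 60 bp (25.0%, 12.7 to 43.4). Over the 1988 summits at all protein-coding TSSs the median was -84.5 bp and 619 lay within 60 bp (31.1%). In replicate 2 the share within 60 bp was 23 of 30 for ribosomal protein hosts (76.7%), against 44.4% for all promoters, and in replicate 4 it was 9 of 20 (interval 25.8 to 65.8), against 25.3%, a share just below that interval. At other protein-coding hosts it was 12 of 26 in replicate 2 (46.2%, 28.8 to 64.5), close to all promoters, and 6 of 28 in replicate 4 (21.4%, 10.2 to 39.5). The medians moved with the replicate. In replicate 2 they were -30.5 bp at ribosomal protein hosts and -65.5 bp at other protein-coding hosts, against -60 bp over all promoters, and in replicate 4 they were -64 bp and -176 bp, against -101 bp. The median of ribosomal protein hosts was nearest to the TSS in all 3 lists, while that of other protein-coding hosts stood close to the median of all promoters in replicate 2. Base composition was read at the IDR summits only. Within 50 bp of the summit the median GC content was 46.5% at ribosomal protein hosts, 36.6% at other protein-coding hosts and 35.6% at all promoter peaks. At the 41 summits of ribosomal protein genes without a snoRNA it was 44.6%, close to that of the ribosomal protein hosts. The part of base composition in the summits' position was not tested.

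**Figure D5:**
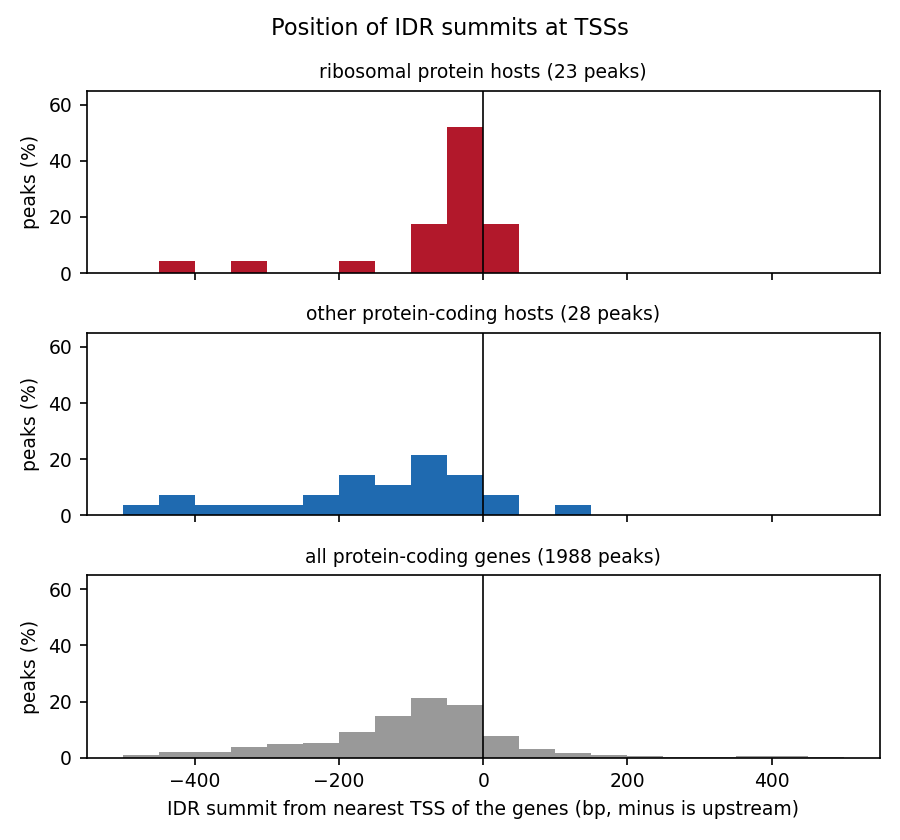
Position of IDR summits relative to the nearest TSS of the genes (x axis, bp, minus is upstream; y axis, percent of peaks in 50-bp bins) for ribosomal protein hosts, other protein-coding hosts and all protein-coding genes. Ribosomal protein hosts gather just upstream of the TSS, with a median of -34 bp, against -122 bp for other protein-coding hosts and -84.5 bp for all protein-coding genes; in the replicates these medians were -30.5, -65.5 and -60 bp (replicate 2) and -64, -176 and -101 bp (replicate 4).

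The 20 hosts with at least 4 snoRNAs carry 153 of the 247 hosted snoRNAs, and the 3 hosts with the most snoRNAs had no IDR peak. Arpc2, for a subunit of the actin-nucleating Arp2/3 complex, carries 17 and had a pooled peak of signal 123 at its TSS (signals 68.5 and 73.9 in replicates 2 and 4). Uhg1 carries 16 and had neither an IDR nor a pooled peak; replicate 4 held a peak of 25.6, rank 27653 of 30000, and replicate 2 held none. dom, for a chromatin remodelling ATPase, carries 15 and likewise had no pooled peak; replicate 2 held one of 42.8, rank 6852, and replicate 4 none. RpS5a follows with 14 and an IDR peak of 304, and Uhg5 with 11 and one of 203. kra, for a regulator of translation, carries 8 (194), and RpS7 carries 7 (214), as do Hrb98DE and Uhg4.

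Of the hosts with 4 or 5 snoRNAs, RpS16, RpL28 (406), RpL3 (271), RpL17 (182), Sf3b3 and lola, for a BTB transcription factor (195, 491 bp upstream), had IDR peaks. CG10576 (60.4), lncRNA:CR45184 (42.8), Uhg2 (106) and Uhg7 (38.0) had pooled peaks alone, and so did Nop60B, with 7 snoRNAs (129). In all, 12 of 20 hosts with at least 4 snoRNAs had an IDR peak (interval 38.7 to 78.1), as did 12 of 17 with 2 or 3 (70.6%, 46.9 to 86.7) and 24 of 55 with 1 (43.6%, 31.4 to 56.7). The intervals overlap.

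The 10 non-coding hosts differed widely. Uhg4 (618), Uhg8 (244, 137 bp upstream) and Uhg5 (203, 29 bp upstream) had IDR peaks. In the replicates, Uhg8 had signals of 55.5 in replicate 2 and 184 in replicate 4, and Uhg5 had 94.6 and 113. Uhg3 (115) and Uhg2 (106) had pooled peaks 37 and 113 bp upstream, and Uhg7 one of 38.0, near the end of the list at rank 28177. Uhg1 and lncRNA:CR31647 had no pooled peak. The last 2, lncRNA:CR45184 (42.8) and lncRNA:CR42491 (52.1), lie inside Sf3b3 and RpL22, which have IDR peaks of their own; under a rule that takes the longest containing gene as the host, chosen after the values were seen, 140 of 247 hosted snoRNAs (56.7%) had an IDR peak at the host.

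No pooled peak was listed at 8 hosts. Besides Uhg1, dom and lncRNA:CR31647 these were Act57B, for an actin, tn, Prp8, for a core spliceosome protein, CG42564 and CG31191. All 28 ribosomal protein hosts had one. The lowest was that of RpS9, with a pooled signal of 53.7.

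Protein-coding hosts differed from other genes in how often they had a head-to-head neighbour and in their number of TSSs. Of the 82 protein-coding hosts, 58 (70.7%) had a head-to-head neighbour, another gene of opposite strand with a TSS within 1000 bp upstream, against 39.1% of all protein-coding genes. Hosts with such a neighbour had an IDR summit in 32 of 58 (55.2%, 42.5 to 67.3), against 33.2% of protein-coding genes with one. Hosts without had a summit in 13 of 24 (54.2%, 35.1 to 72.1), against 8.31%. Hosts had 2.01 annotated TSSs on average, against 1.41 for all protein-coding genes. Hosts with 1 TSS had an IDR summit in 19 of 38 (interval 34.8 to 65.2), against 14.5%, and those with more in 26 of 44 (59.1%, 44.4 to 72.3), against 27.8%. In each of these 4 strata the interval for the hosts lay above the share for all protein-coding genes of the same kind, but the strata pool both classes of protein-coding host. Split by class, ribosomal protein hosts with a head-to-head neighbour had an IDR summit in 16 of 19 (84.2%, 62.4 to 94.5), while other protein-coding hosts with one had it in 16 of 39 (41.0%, 27.1 to 56.6), an interval that holds the 33.2% of all such genes. Without a neighbour the counts were 6 of 9 ribosomal protein hosts (66.7%, 35.4 to 87.9) and 7 of 15 other protein-coding hosts (46.7%, 24.8 to 69.9), both intervals above 8.31%. Expression level and open chromatin were not measured here, and their part in the result was not tested.

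Known core promoter letters were searched at all host peaks and promoters and at those of all protein-coding genes. Both strands were searched for TATCGATA (DRE), GGTCACAC (part of the element called Motif 1), TAGCTA and AGAGATG, where matches of the DRE and TAGCTA can share the TA at their ends. Within 50 bp of the 54 host summits, the DRE was in 2 (3.70%), GGTCACAC in 3 (5.56%), TAGCTA in 5 (9.26%) and AGAGATG in 1 (1.85%). Over the 1988 promoter summits the shares were 5.28%, 3.12%, 9.10% and 3.27%, all inside the hosts' intervals. In the promoters, from 250 bases before to 50 after the outermost TSS, a DRE was in 18 of 92 hosts (19.6%, 12.7 to 28.8), against 9.36% of protein-coding genes, and GGTCACAC in 11 (12.0%, 6.81 to 20.2), against 7.69%. TAGCTA was in 9 (9.78%, 5.23 to 17.6), against 7.37%, and AGAGATG in 2 (2.17%, 0.598 to 7.58), against 4.93%. The background of the DRE alone lay outside the hosts' interval. By class, a DRE was in 8 of 28 ribosomal protein hosts (28.6%, 15.3 to 47.1) and in 10 of 54 other protein-coding hosts (18.5%, 10.4 to 30.8). It was in 0 of 10 non-coding hosts. Ribosomal protein genes without a snoRNA had a DRE in 20 of 65 (30.8%), so it was not particular to the hosts among them.

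The CTTT initiator was searched on the sense strand at every TSS of a gene. It was at 31 of 92 hosts (33.7%, 24.9 to 43.8), against 8.06% of protein-coding genes. Ribosomal protein hosts had it in 18 of 28 (64.3%, 45.8 to 79.3), close to the 40 of 65 ribosomal protein genes without a snoRNA (61.5%), and other protein-coding hosts in 10 of 54 (18.5%). Hosts with an IDR summit had the initiator in 23 of 48 (47.9%, 34.5 to 61.7) and hosts without one in 8 of 44 (18.2%, 9.51 to 32.0). Within the ribosomal protein hosts the counts were 15 of 22 and 3 of 6, and within the other protein-coding hosts 6 of 23 and 4 of 31, where the intervals overlap. Genes with more annotated TSSs have more places for a match, and at the outermost TSS alone the share was 20.7% of hosts, against 5.63% of protein-coding genes. A match is not a mapped initiator.

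The genes whose products build and process snoRNA particles were read in the same way. Of a list of 15, 8 had an IDR summit at a TSS (53.3%, 30.1 to 75.2), against 18.0% of protein-coding genes, and 13 a pooled one, against 53.1%. Most of the 15 had a head-to-head neighbour, and the 33.2% of protein-coding genes with one lies inside the interval for the IDR list. The list was chosen with earlier results of these data known. For the box C/D particle, the core protein gene nop5 (217) and hoip (185) had IDR peaks, the second nearer to Pka-C1. The methyltransferase gene Fib (101) and Nop56 (90.2) had pooled peaks alone. For the box H/ACA particle, Nop10 (740.0) and NHP2 (203) had IDR peaks, the first nearer to mms4. The pseudouridine synthase gene Nop60B (129) and Gar1 (40.8) had pooled peaks alone.

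Among the assembly and processing genes, rept (4380.0) and pont (310.0), for the paired AAA+ ATPases that act in snoRNA particle assembly, had IDR peaks 69 and 85 bp upstream. In the replicates, rept had signals of 1325 and 3120.0, and pont 86.1 and 229. Rrp6, for an exonuclease of the nuclear exosome, had 2166 (715 in replicate 2 and 1507 in replicate 4), and CG10055 had 732. Nopp140, for a nucleolar chaperone, had a pooled peak of 154, and CG10341 and Tgs1, for the enzyme that trimethylates RNA caps, had none. Of these genes, 3 are hosts themselves: Nop60B, with 7 snoRNAs, and Fib and nop5, with 1 each.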

How the data were processed

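The data were peak lists of 2 ChIP-seq libraries, biological replicates 2 and 4 of 1 group of whole Drosophila melanogaster embryos. The authors deposited 4 narrowPeak lists (dm6). According to the deposited readme files, the relaxed list of a replicate was made from the alignment of that library and a control alignment shared by both, the pooled list from both libraries, and the IDR list from all 3 of those. The software for alignment, peak calling and IDR, and the threshold applied, were not given in the sources used here. The signal and score of each peak, its −log10 p-value and q-value and its summit offset are the authors' deposited values; of these, signal, rank and summit were used. A summit beyond its peak (2 in the IDR list) was set to the last base of the peak.

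Gene models were those of Ensembl release 115, and sequence was read from the RefSeq copy of the release 6 assembly. Counts, distances and Wilson intervals were computed in Python (3.11.15) with pandas (2.3.3), numpy (2.4.6) and scipy (1.17.1), and the steps were tested on simulated data. Hosts were same-strand genes other than snoRNA, tRNA, snRNA, miRNA, rRNA or pseudogenes; transposable elements were also left out as hosts, a choice made after the annotation was seen. With 1 group, no hypothesis test was made, and shares were set beside the same count over all genes. Genes were named by a rule: the 15 hosts with the highest IDR signal, hosts with at least 4 snoRNAs, all non-coding hosts, up to 12 snoRNAs nearest to an IDR summit, snoRNAs without a host with an IDR peak or among 6 with the highest pooled signal, and the snoRNA particle genes. Other genes were named after their values were seen. The members, lists and motifs were chosen with earlier results of these data known. Alternatives covered the window, the use of summit or peak, each replicate, the signal threshold and the host rule.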

Additional observations from a re-analysis of the deposited data

How the results depend on the processing

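Over 56 alternatives, 43 gave a share or ratio within 1.5 times the reported one, or within the standard deviation of the replicates (0.217) for the ratio of signals. The other 13 moved by more. The ratios of the single replicates are among the 43, but that deviation comes from the replicates themselves, so their agreement shows little. The share of snoRNA starts with an IDR summit (4.09%) was 1.86% with a window of 250 bp, 17.1% with 1000 bp, 7.81% when any base of the peak counted, 1.49% among IDR peaks of at least the median signal and 0.45% for starts more than 500 bp from every TSS. With 1 replicate left out it ranged from 3.35% to 6.32%, against 13.2% and 14.3% of other gene starts. The share with a pooled relaxed summit (21.6%) was 10.4% at 250 bp, 47.2% at 1000 bp, 34.2% for any base of the peak and 14.0% away from TSSs. With 1 replicate left out it ranged from 17.5% to 29.7%, against 42.8% and 47.3% of other gene starts. Other gene starts were not counted at the other settings, so whether the snoRNA starts stay below them there is unknown. Among IDR peaks of at least the median signal, the shares were 27.2% for hosts, against 10.3% of protein-coding genes, 28.7% for hosted snoRNAs and 33.3% for the snoRNA particle genes; this setting holds fewer peaks by construction. By construction too, a narrower window can only lose genes, and a wider window or any base of the peak can only gain them. For the other moved shares the cause was not tested. The share of hosts with an IDR summit ranged from 40.6% to 56.5% over the other alternatives, and with 1 replicate left out from 45.7% to 56.5%, against 17.4% and 18.5% of protein-coding genes. The rules taking the longest containing gene as host (53.3% of hosts) and counting a summit for the nearest TSS (45.7%) were added after the data were seen. No paired analysis was possible because the series has 1 group. The lists hold no read counts, so the depth behind a missing peak is unknown, and a gene without a peak is one without a listed peak.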

Other observations

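Other short non-coding genes were read in the same lists. Of 32 snRNA genes, 0 had a start within 500 bp of an IDR summit (interval 0 to 10.7%) and 12 a pooled one (37.5%). For tRNA genes the counts were 14 and 127 of 290. In replicate 2, 16 of 22 snoRNA genes without a host had a summit in the relaxed list (72.7%, 51.8 to 86.8), against 47.3% of other gene starts. In replicate 4 it was 12 of 22 (54.5%, 34.7 to 73.1), against 42.8%, which lies inside the interval. Neighbouring starts among the 22 share a pooled peak and are not independent, which the intervals do not cover.

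Hosts on each arm had IDR peaks in 7 of 15 cases on 2L, 9 of 23 on 2R, 11 of 22 on 3L, 14 of 21 on 3R and 6 of 10 on X. The single host on chromosome 4, RpS3A, had one as well. The intervals of the arms overlap, with 22.2 to 59.2% on 2R and 45.4 to 82.8% on 3R. The shares over all genes of each arm were not counted, so no difference between arms is read from these counts. Arm 2R holds 96 of the 269 snoRNA genes, among them those of Uhg1 and dom.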
